A study of Mus musculus with 80 samples.

Results

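Bile acids are made from cholesterol in hepatocytes, exported into bile, taken up again in the ileum and returned to the liver. The 10 genes described here are 4 enzymes of synthesis (Cyp7a1, Cyp8b1, Cyp27a1 and Cyp7b1), the conjugating enzyme Baat, the transporters Slc10a1 and Abcb11, and 3 regulators (the bile acid receptor FXR, encoded by Nr1h4, its target SHP, encoded by Nr0b2, and the receptor kinase Fgfr4). They were chosen by symbol from the 78275 genes of the count table, and all 10 passed the filter on low counts that left 21187 genes in the fit of all libraries. RNA was sequenced from liver of male and female C57BL/6J mice, 8 to 12 weeks old, kept for 10 days in 12 h of light and 12 h of darkness and then in constant darkness. All mice ate freely until circadian time 10 (CT10, in hours). Control mice went on eating, while fasted mice had their food removed at CT10 and went without it for 2 to 34 h. Livers were taken every 4 h from CT8, when both groups were still fed, to CT44, with 2 males and 2 females for each treatment and time, or 80 libraries in all. Polyadenylated RNA was sequenced on strand-marking libraries. Each library came from a piece of the left lobe of one mouse, so the spread between libraries includes that between animals. Time without food and circadian time advance together in the fasted mice, and each fasted liver is compared with control livers of the same time.

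Cyp7a1 is the rate-limiting enzyme of the classic pathway, and Cyp8b1, the sterol 12α-hydroxylase, directs its product towards cholic acid. Cyp27a1 opens the alternative pathway at the side chain and Cyp7b1 continues it with a 7α-hydroxylation of oxysterols. Baat joins bile acids to taurine or glycine, Abcb11 (the bile salt export pump) moves the conjugates into the canaliculus, and Slc10a1 (NTCP) takes them back up from the blood. FXR is switched on by bile acids and is known to induce Abcb11 and Nr0b2, whose product represses Cyp7a1 and Cyp8b1. The ileal hormone FGF15 signals to the liver through Fgfr4 and its co-receptor Klb and also represses synthesis. Feeding returns bile acids to the liver and the clock imposes a daily rhythm on Cyp7a1.

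Levels are given in CPM, counts scaled to the library size with factors from the trimmed mean of M values, and the values of a group are always listed as male 1, male 2, female 1 and female 2. Differences are log2 of fasted over control, averaged over the sexes, with their standard error (SE). Each gene was tested in edgeR with a quasi-likelihood test, and p-values were adjusted by Benjamini and Hochberg over all genes tested; a gene rose or fell where the adjusted p was under 0.05. In whole tissue, fewer cells of a type and less RNA per cell cannot be told apart. Fits without 1 replicate number of a sex left 1 library in each group of that sex. Their spread came from the other sex alone, so a call gained there was not counted as support. A call can also be lost there while the difference hardly moves.

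Libraries held 25534901 to 59927771 gene counts (median 42303883). Groups were taken from the sample titles, from which another label field differed in sex for 40 libraries and in treatment for 40. Transcripts of sex-specific genes matched the titled sex for each of the 80 libraries. The summed level of 6 hepatocyte markers was 68200 to 119000 CPM in control and 83700 to 137000 CPM in fasted livers from CT12 on, so the tissue carried the markers of its label. Averaged over CT12 to CT44, 29.5% of all genes rose and 32.9% fell with fasting. Of the 6 hepatocyte markers 5 rose and 1 fell. Of 7 cholangiocyte markers, 6 fell and none rose with fasting, and their summed level was 45.2 to 102 CPM in control and 22.1 to 93 CPM in fasted livers. Of 5 Kupffer cell markers 4 fell, with sums of 169 to 578 and 120 to 370 CPM. Of 4 endothelial markers 2 rose and 1 fell, of 4 stellate cell markers 1 rose and 2 fell, and of 5 blood markers none rose and 2 fell. Of 3 tested gut epithelium markers 2 rose and 1 fell. The part of these shifts in the results was not tested. One library, control CT8 female 2, had 31.3% of its counts in the ribosomal RNA gene Rn18s-rs5, against a median of 0.101% over all libraries.

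Promoter sequences are shown for Abcb11, which fell with fasting, for Cyp8b1, which rose, and for Nr0b2, the gene through which FXR is known to restrain Cyp8b1. Each is the 250 bases before the gene's start, written 5′ to 3′ on the gene's strand, from RefSeq (GRCm38.p6), which held this window for 7 of the 10 genes and not for the other 3. Abcb11, Cyp8b1 and Nr0b2 were the only ones of the 7 with a match to a searched motif. The windows of Cyp27a1, Slc10a1, Nr1h4 and Fgfr4 had none and are not shown. RefSeq starts can differ from those of GENCODE M21. The Nr1h4 window (chr10:89506659-89506908, minus strand) lay inside the gene as placed there (start at 89533585), as did a window of Slc10a1. That of Fgfr4 ran past its GENCODE start. Capitals mark letters that match a searched motif on either strand. In Abcb11 (chr2:69342617-69342866, minus strand) they mark the IR1 element, an inverted repeat of receptor half-sites with a single base between them that is bound by FXR, found 62 to 52 bases before the start. In Cyp8b1 (chr9:121916306-121916555, minus strand) they mark CAAAGTCCA, an HNF4-type element, at 67 to 59 bases and, overlapping it, CAAGGNCA, the half-site of LRH-1 (Nr5a2), at 60 to 53 bases. In Nr0b2 (chr4:133553126-133553375, plus strand) they mark CAAGGNCA at 201 to 194 bases and, overlapping it, the E-box CACGTG at 195 to 190 bases.
Abcb11: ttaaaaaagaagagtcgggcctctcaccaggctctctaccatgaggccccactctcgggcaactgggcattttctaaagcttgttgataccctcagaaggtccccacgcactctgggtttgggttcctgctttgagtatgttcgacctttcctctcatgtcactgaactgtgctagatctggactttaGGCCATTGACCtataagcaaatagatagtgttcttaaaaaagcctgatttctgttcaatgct
Cyp8b1: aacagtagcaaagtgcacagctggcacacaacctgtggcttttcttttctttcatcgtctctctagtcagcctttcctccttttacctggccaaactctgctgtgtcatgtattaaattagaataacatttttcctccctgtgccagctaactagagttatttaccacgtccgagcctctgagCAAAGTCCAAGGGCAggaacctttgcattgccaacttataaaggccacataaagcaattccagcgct
Nr0b2: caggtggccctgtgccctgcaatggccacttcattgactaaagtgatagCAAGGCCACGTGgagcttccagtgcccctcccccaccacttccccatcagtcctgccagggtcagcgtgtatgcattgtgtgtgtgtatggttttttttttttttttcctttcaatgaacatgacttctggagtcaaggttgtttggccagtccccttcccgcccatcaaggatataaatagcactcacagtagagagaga
Of 32851 such windows in the mouse genome, 0.575% held the IR1 element, 0.384% CAAAGTCCA, 5.53% CAAGGNCA and 6.02% CACGTG. The D-box TTATGTAA (0.819% of windows) and the DR1 element, a direct repeat of half-sites (0.694%) were also searched and matched none of these 3 windows. A match describes the letters only.

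Averaged over the 9 times from CT12 to CT44, Cyp7a1, Abcb11, Cyp7b1, Fgfr4 and Baat fell in fasted livers and Cyp8b1 rose, while Cyp27a1, Nr0b2, Slc10a1 and Nr1h4 did not pass the test. That is 6 of 10 genes called, against 62.5% of all genes tested, with 5 lower (32.9% of all genes) and 1 higher (29.5%). The share of the 10 genes called is thus near that of all genes, and what sets them apart from one another is the size of the change. For 4 of them, Cyp7a1, Cyp8b1, Cyp7b1 and Abcb11, the change was also at least 1.5 times, which held for 20.6% of all genes. The median difference over all genes was -0.02 on the log2 scale.

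**Figure D1:**
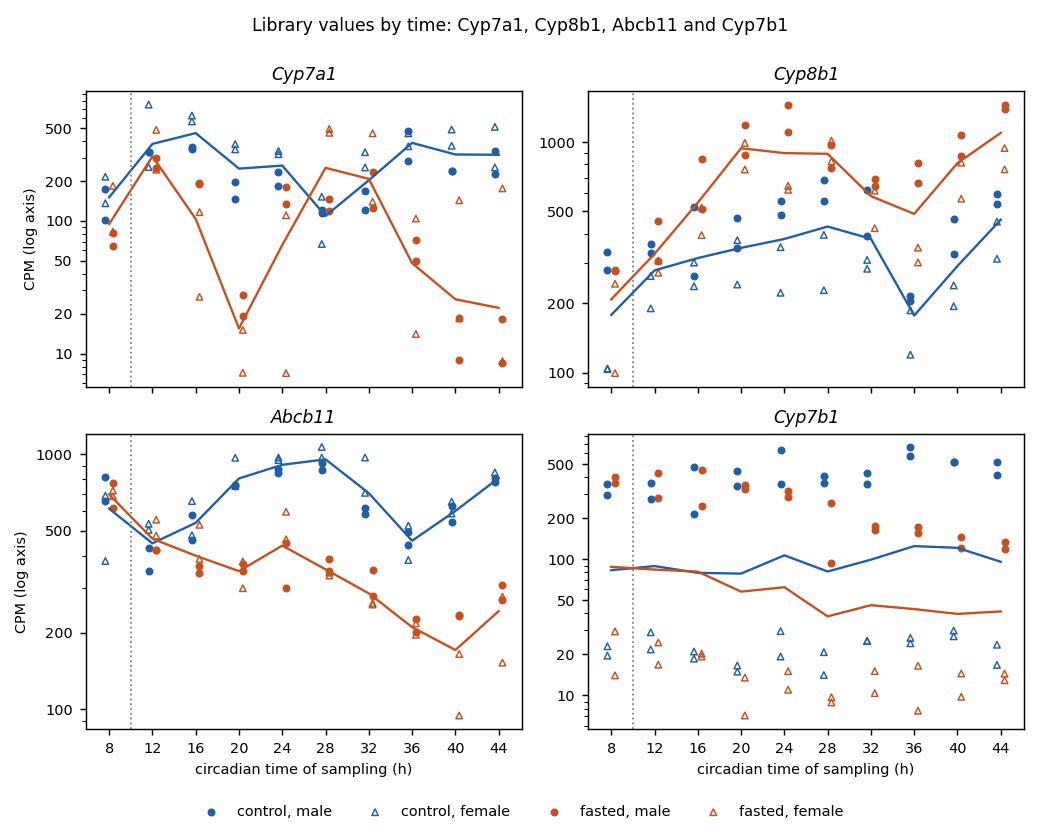
CPM on a log axis against circadian time for Cyp7a1, Cyp8b1, Abcb11 and Cyp7b1, with 1 point per library (4 per treatment and time), lines through the geometric means and a dotted line where food was removed (CT10). Fasted Abcb11 lies below control at every time from CT20 on, and the males and females of Cyp7b1 form separate bands. Fasted Cyp7a1 has an arithmetic mean of 17.3 CPM at CT20 and of 305 CPM at CT28, where both females lie above both males.

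Cyp7a1 fell most of the 10 genes, 3.33-fold over CT12 to CT44 (log2 difference -1.74 ± 0.20 (SE), adjusted p = 3.58e-10), with low values around CT20 and again from CT36 and higher ones between. The 36 control libraries spanned (lowest, median and highest) 67.1, 324 and 753 CPM, and the 36 fasted libraries 7.14, 118 and 494 CPM. At CT16 control livers had 351, 362, 563 and 623 CPM. Fasted livers, 6 h after food removal, had 193, 190.1, 117 and 26.8 CPM, all below every control (log2 difference -1.97 ± 0.61 (SE), adjusted p = 0.0145). At CT20 control livers held 145, 198, 346 and 379.7 CPM and fasted livers 19.3, 27.5, 7.18 and 15.1 CPM. This was the widest gap of the course, 15.5-fold (-3.95 ± 0.67 (SE), adjusted p = 5.80e-06). By CT28 the groups overlapped. Control livers, at their lowest mean of the course, had 115, 121, 67.1 and 152 CPM, and fasted livers had 119.6, 147, 494 and 462 CPM. Both fasted females lay above all controls there and both fasted males within the control range, and the difference did not pass the test (1.15 ± 0.60 (SE), adjusted p = 0.181). From CT36 to CT44 the fasted values were low again. Control livers had 225, 339, 253 and 512 CPM at CT44. Fasted livers had 18.3, 8.51, 176 and 8.79 CPM, so 3 of 4 were under 20 CPM and 1 female was near the lowest control (-3.22 ± 0.65 (SE), adjusted p = 7.80e-05). All 4 fasted libraries lay below all 4 controls at 6 of 9 times, CT16, CT20, CT24, CT36, CT40 and CT44, and above at none. Over all genes such a gap was found in 10.6% of the gene and time pairs below and in 10.4% above. At CT24 the difference was not called (-1.45 ± 0.60 (SE), adjusted p = 0.0746). There 1 fasted female had 7.14 CPM and the other 3 libraries 110.3 to 179.7 CPM. The difference at CT24 was -1.01 without female replicate 1 and -2.95 without female replicate 2, so the female replicates disagreed in its size. It was called with limma-voom (-1.98, adjusted p = 0.0165). At CT28 the difference was 0.89 without female replicate 1 and 1.53 without female replicate 2. It was called in a fit of the CT28 libraries alone (1.14, adjusted p = 0.011). The call at CT16 was lost without male replicate 1 or 2, where the difference stayed at -2.00 and -1.96. That at CT36 (-2.72) was lost without either of them (-2.39 and -3.03), and that at CT44 without male replicate 2 (-2.84).

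Cyp8b1, which acts after Cyp7a1 in the classic pathway, moved the other way and was the only one of the 10 to rise, 2.08-fold (1.05 ± 0.08 (SE), adjusted p = 1.94e-16). Control libraries spanned 119.6, 329 and 682 CPM (lowest, median, highest, n = 36) and fasted libraries 271, 760.4 and 1453 CPM. At CT20 control livers had 346, 466, 241 and 375 CPM and fasted livers 876, 1184, 990.5 and 759.9 CPM (1.42 ± 0.23 (SE), adjusted p = 2.64e-06). Every fasted liver was above every control at that time, when Cyp7a1 was at its lowest. At CT36, where the control mean was lowest, the control values were 215, 204, 119.6 and 186 CPM. Fasted livers of that time had 665, 814, 301 and 348 CPM (1.45 ± 0.23 (SE), adjusted p = 5.30e-06). At CT44 the 4 control livers had 537, 594, 312 and 452 CPM and the 4 fasted 1446, 1391, 761 and 942 CPM (1.24 ± 0.23 (SE), adjusted p = 2.37e-05). The groups did not overlap at 6 of 9 times (CT20, CT24, CT28, CT36, CT40 and CT44) and the rise was called at 7, these and CT16. The call at CT16 (0.78) was lost without male replicate 1 or 2 (0.72 and 0.86) and in the CT16 libraries alone (adjusted p = 0.0608). At CT32 the difference was not called (0.61 ± 0.23 (SE), adjusted p = 0.056). It was called with DESeq2 (adjusted p = 0.0344), upper quartile scaling (adjusted p = 0.0456) and a filter at a mean of at least 1 CPM (adjusted p = 0.0401). The CT32 libraries alone also called it (adjusted p = 0.0242). Within each library, Cyp8b1 counts over Cyp7a1 counts came to a log2 ratio of 0.49 ± 0.90 in control and 5.92 ± 0.80 in fasted livers at CT20 (SD, n = 4 each). At CT28 the same ratio was 1.98 ± 0.94 in control and 1.82 ± 1.03 in fasted livers, and at CT44 it was 0.55 ± 0.62 and 5.63 ± 2.38. The ratio thus stood apart between the groups at CT20 and CT44 and overlapped at CT28.

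In the alternative pathway Cyp7b1 fell 1.81-fold (-0.86 ± 0.09 (SE), adjusted p = 4.74e-12), and it did so gradually. At CT16 control livers had 214, 478, 21.0 and 18.6 CPM and fasted livers 245, 453, 20.2 and 19.3 CPM, with no difference called (0.0042 ± 0.26 (SE), adjusted p = 1.00). At CT40 control livers had 516, 518, 29.9 and 27.2 CPM and fasted livers 145, 121, 14.5 and 9.76 CPM (-1.59 ± 0.26 (SE), adjusted p = 3.01e-06). Within each sex all fasted libraries were below all controls at that time, though the ranges over both sexes overlapped because males had far more of this transcript than females. The fall was called at the 6 times from CT24 to CT44. At CT24 (-0.81) it lost the call without male replicate 1 or female replicate 2 (-0.63 and -0.54). At CT28 (-1.02) it did so without male replicate 1 or female replicate 1 (-0.79 and -0.83).

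Cyp27a1, which starts the alternative pathway in the mitochondrion, had no mean difference past the threshold (-0.10 ± 0.05 (SE), adjusted p = 0.075). Its difference from control was positive early and negative late in the fast. It was already positive at CT8, before food removal (0.24 ± 0.15 (SE), adjusted p = 0.54), so the early values cannot be told apart from that offset. The mean was called with limma-voom (adjusted p = 0.049) and without the filter on low counts (adjusted p = 0.042), and was -0.17 without female replicate 1. At CT16 the control values were 499.7, 576, 502 and 499.9 CPM and the fasted values 633, 624, 721 and 702 CPM, with all fasted above all controls but no call (0.36 ± 0.15 (SE), adjusted p = 0.0744). The early difference was called in the CT16 libraries alone (adjusted p = 0.0202). At CT16 it was 0.36 without female replicate 1 and 0.37 without female replicate 2, and at CT20 it was 0.41 without female replicate 2. At CT44 control livers had 551, 606, 530.4 and 578 CPM and fasted livers 339, 371, 480.0 and 289 CPM, with all fasted below (-0.62 ± 0.15 (SE), adjusted p = 9.77e-04). A fall was called at CT40 and CT44 only. The call at CT40 (-0.44) was lost without male replicate 1, male replicate 2 or female replicate 1 (-0.51, -0.39 and -0.25). It was also lost in the CT40 libraries alone (adjusted p = 0.122). That at CT44 was lost without male replicate 2, where the difference stayed at -0.62. At CT36 the difference was not called (-0.38 ± 0.15 (SE), adjusted p = 0.0559). A fall was called there with limma-voom (adjusted p = 0.0411) and with a filter at a mean of at least 1 CPM (adjusted p = 0.041). Without female replicate 1 the CT36 difference was -0.63. Over the whole course the test of any change was passed (adjusted p = 4.12e-04). Of the 10 genes 8 passed that test, against 61.7% of all genes, and the other 2 were Slc10a1 (adjusted p = 0.489) and Nr0b2 (adjusted p = 0.655). That call was lost for Cyp27a1 without male replicate 1 or 2 (adjusted p = 0.119 and 0.0826), for Baat without male replicate 2 (adjusted p = 0.0801) and for Nr1h4 without male replicate 1, male replicate 2 or female replicate 2 (adjusted p = 0.108, 0.569 and 0.305). A call gained by Slc10a1 without female replicate 1 was not counted as support.

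Baat fell by a small amount over the fast, 1.12-fold (-0.17 ± 0.04 (SE), adjusted p = 3.24e-04). Its libraries spanned 181, 229.9 and 311 CPM in control and 102, 208 and 347 CPM in fasted livers (lowest, median, highest, n = 36 each), which overlapped widely. At CT40 control livers had 237, 279.6, 217 and 236 CPM and fasted livers 210.0, 233, 161 and 102 CPM (-0.50 ± 0.12 (SE), adjusted p = 8.94e-04). A fall was called there and at CT44 (-0.52 ± 0.12 (SE), adjusted p = 6.41e-04), and at no earlier time. The call at CT40 was lost without female replicate 2 (-0.31, adjusted p = 0.0747) and in the CT40 libraries alone (adjusted p = 0.0555). The mean fall was not called without the libraries of female replicate 2 (log2 difference -0.10, adjusted p = 0.0560).

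The canalicular pump Abcb11 fell 2.15-fold (-1.11 ± 0.05 (SE), adjusted p = 2.99e-22). Control libraries spanned 348, 679.9 and 1066 CPM and fasted libraries 94.6, 338 and 595 CPM (lowest, median, highest, n = 36 each). At CT12, after 2 h without food, control livers had 427, 348, 534 and 505 CPM and fasted livers 423, 421, 479.9 and 554 CPM (0.06 ± 0.16 (SE), adjusted p = 0.94), so the groups overlapped. At CT28, where the control mean was highest, the control values were 926, 867, 1066 and 968 CPM and the fasted values 349.8, 389, 343 and 334 CPM (-1.43 ± 0.17 (SE), adjusted p = 7.52e-09). The highest fasted library lay far below the lowest control there, and the means were 957 ± 84.0 CPM (SD, n = 4) and 354 ± 24.1 CPM (SD, n = 4). At CT40 the control values were 624, 541, 585 and 651 CPM and the fasted values 235, 232, 165 and 94.6 CPM, a 3.45-fold difference (-1.79 ± 0.17 (SE), adjusted p = 1.10e-11). Fasted libraries lay below all controls at the 7 times from CT20 to CT44, and the fall was called at 8 times, from CT16 on. The call at CT16 (-0.43 ± 0.16 (SE), adjusted p = 0.0471) was lost with the replicate block (adjusted p = 0.0523) and with limma-voom (adjusted p = 0.05, just past the threshold). It was also lost in the CT16 libraries alone (adjusted p = 0.0698) and without male replicate 1 or 2 (-0.50 and -0.38). Abcb11 spans chr2:69238282-69342616 on the minus strand (GRCm38, GENCODE M21), where the annotation places 1 antisense gene and 1 processed pseudogene on the opposite strand. Whether the counts used the strand is not given in the sources used here, so reads of these cannot be told apart from those of Abcb11.

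Slc10a1, the uptake transporter of the opposite membrane, had a mean difference of -0.04 ± 0.05 (SE), adjusted p = 0.529, and none of the 9 times was called. All fasted libraries lay below all controls at CT24 only (-0.17 ± 0.16 (SE), adjusted p = 0.525). Control libraries spanned 405, 735 and 1244 CPM and fasted libraries 495, 711 and 1105 CPM (lowest, median, highest, n = 36 each). At CT40 control livers had 579, 637, 772 and 813 CPM and fasted livers 719, 765, 891 and 586 CPM (0.09 ± 0.16 (SE), adjusted p = 0.698). The log2 ratio of Slc10a1 to Abcb11 counts within a library was -0.49 ± 0.45 in control and 0.92 ± 0.26 in fasted livers at CT28, and -0.27 ± 0.11 and 1.61 ± 0.74 at CT44 (SD, n = 4 each). At both times every fasted library had the higher ratio.

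Among the regulators Fgfr4 fell, while the mean differences of Nr1h4 and Nr0b2 did not pass the test. Nr1h4 (FXR) had a mean difference of -0.0014 ± 0.038 (SE), adjusted p = 1.00, with libraries spanning 79.7, 127 and 157 CPM in control and 89.4, 126 and 173 CPM in fasted livers (n = 36 each). Its only call was a rise at CT28, where control livers had 116, 113, 106 and 79.7 CPM and fasted livers 89.4, 138, 173 and 149 CPM (0.39 ± 0.11 (SE), adjusted p = 0.01). The groups overlapped there, and 1 fasted male was below 3 of the controls. The call was lost without male replicate 2 (0.21, adjusted p = 0.434), without female replicate 2 (0.35, adjusted p = 0.0696) and in the CT28 libraries alone (adjusted p = 0.103). At CT40 all fasted libraries lay below all controls for Nr1h4, without a call (-0.25 ± 0.11 (SE), adjusted p = 0.0777). Nr0b2 (SHP), the FXR target, did not pass at any of the 9 times and had a mean difference of -0.23 ± 0.14 (SE), adjusted p = 0.155. Without female replicate 2 the mean difference was -0.38. It was low and variable, with 6.69, 23.2 and 50.7 CPM in control and 4.05, 17.5 and 50.4 CPM in fasted livers (n = 36 each). At CT20, when fasted Cyp7a1 was lowest, control livers had 37.0, 25.7, 18.2 and 7.72 CPM of Nr0b2 and fasted livers 19.2, 18.3, 7.88 and 19.8 CPM (-0.32 ± 0.43 (SE), adjusted p = 0.598). The groups overlapped at all 9 times, and the SE of its difference at a single time was 0.42 to 0.43 on the log2 scale.

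Fgfr4 fell 1.36-fold (-0.44 ± 0.04 (SE), adjusted p = 2.56e-14), most at CT20 and again at CT44. At CT20 control livers had 55.6, 42.6, 67.7 and 58.4 CPM and fasted livers 27.0, 23.7, 23.4 and 29.5 CPM (-1.11 ± 0.11 (SE), adjusted p = 8.50e-11). At CT32 the groups overlapped, with 35.5, 39.6, 47.6 and 43.3 CPM in control and 43.6, 35.6, 51.3 and 46.0 CPM in fasted livers (0.09 ± 0.11 (SE), adjusted p = 0.654). At CT44 they were apart again, with 46.8, 50.0, 65.1 and 68.6 CPM and 26.8, 26.0, 41.3 and 29.6 CPM (-0.90 ± 0.11 (SE), adjusted p = 1.30e-08). Fasted libraries lay below all controls at 5 of 9 times, CT16, CT20, CT24, CT40 and CT44. The fall was called at these and at CT28. It lost the call at CT16 (-0.41) without male replicate 1 (-0.33) and at CT28 (-0.47) without male replicate 2 (-0.36). Over the 9 times the hormone that acts on this receptor could not be followed, since Fgf15 had 0 counts in all 80 livers. A count of 0 allows up to 3 counts, or 0.0501 to 0.117 CPM depending on the library (counting error only).

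**Figure D2:**
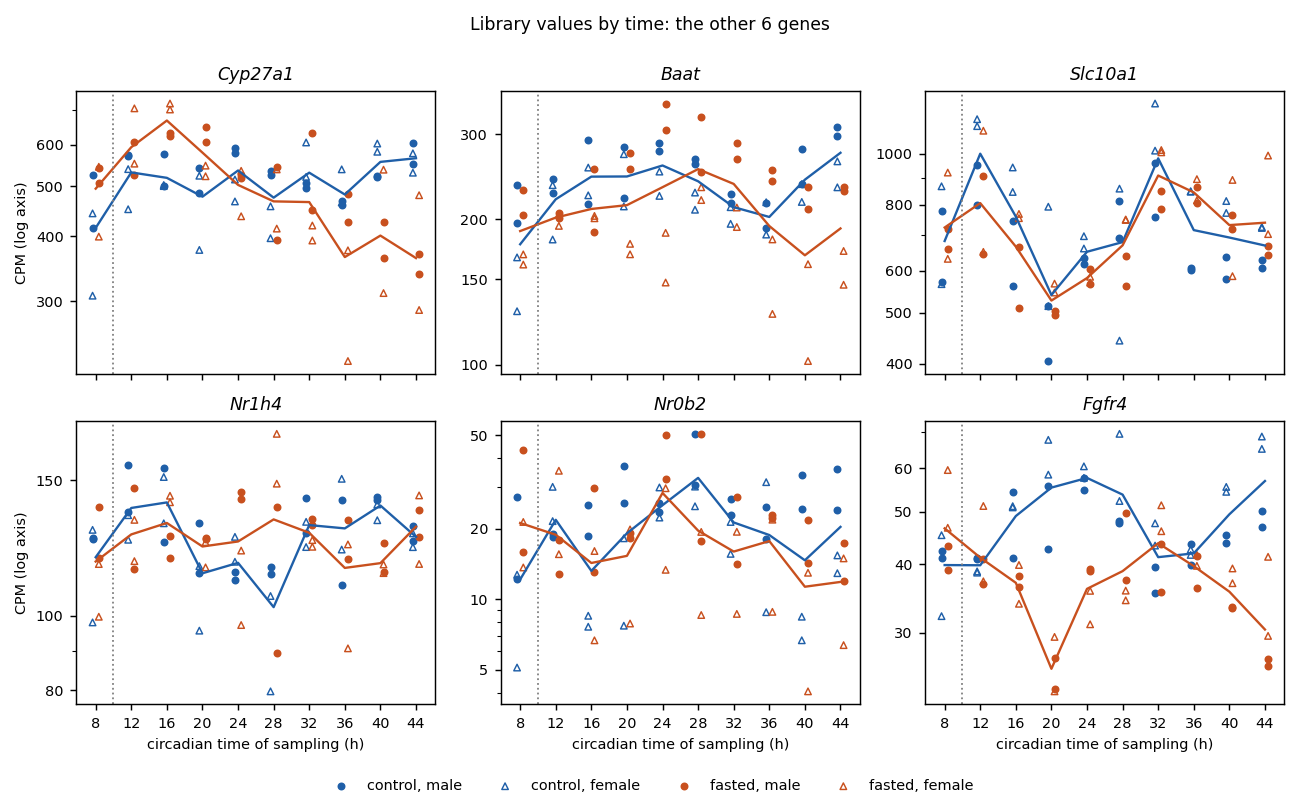
CPM on a log axis against circadian time for Cyp27a1, Baat, Slc10a1, Nr1h4, Nr0b2 and Fgfr4, with 1 point per library, lines through the geometric means of 4 libraries and a dotted line at food removal (CT10). Fgfr4 separates at CT20 and CT44 and meets at CT32, Cyp27a1 crosses from above to below control, and Slc10a1, Nr1h4 and Nr0b2 overlap at nearly all times.

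By time, none of the 10 genes was called 2 h after food removal at CT12, when 1.60% of all genes were. At CT16 there were 4 (23.4% of all genes), at CT20 4 (36.6%), at CT24 4 (24.1%) and at CT28 5 (21.0%). The count was lowest at CT32, with 2 (17.7%), both of them falls (Abcb11 and Cyp7b1). It was 4 at CT36 (26.8%), 7 at CT40 (39.9%) and 7 at CT44 (39.4%). At CT40 and CT44 the same 7 genes were called, Cyp8b1 higher and Cyp7a1, Cyp27a1, Cyp7b1, Baat, Abcb11 and Fgfr4 lower. At CT8, before food removal, none of the 10 passed the test (1.33% of all genes did). At both CT8 and CT12 edgeR gave 0 of the 10 an unadjusted p under 0.05, and limma-voom and DESeq2 also called 0. At CT8 the largest differences were 0.80 ± 0.43 (SE), adjusted p = 0.45 for Nr0b2 and -0.65 ± 0.59 (SE), adjusted p = 0.721 for Cyp7a1. Without female replicate 1 the CT8 difference of Cyp27a1 was 0.49, against 0.24 ± 0.15 (SE) with all libraries. Without the filter Cyp7a1 and Nr0b2 were called at CT8, with SEs of only 0.12 each.

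**Figure D3:**
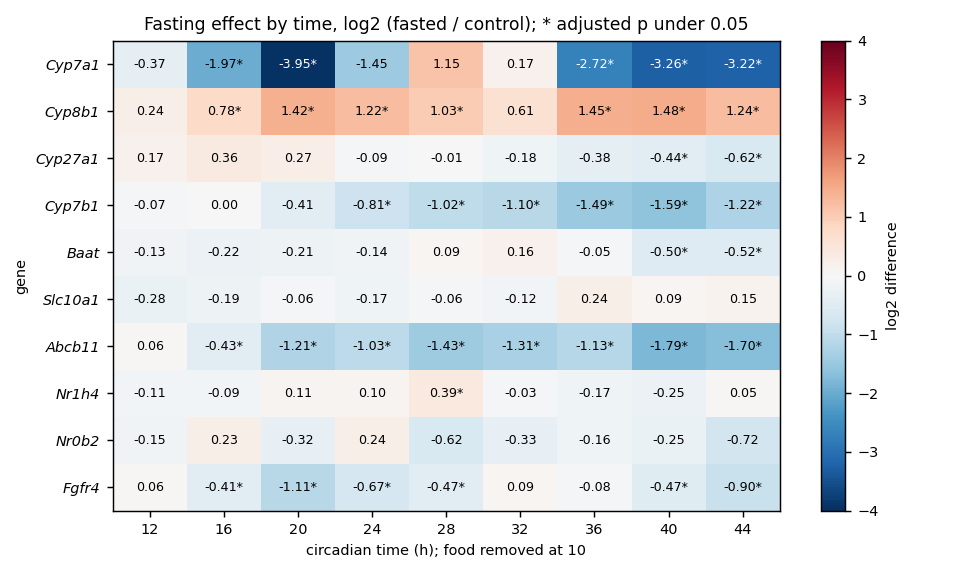
Log2 difference between fasted and control livers (4 against 4) for each of the 10 genes at each time from CT12 to CT44, as colour and number, with a star where the adjusted p was under 0.05. Cyp7a1 ranges from -3.95 at CT20 to 1.15 at CT28, Cyp8b1 is positive and Abcb11 negative at every time from CT16 on.

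The phases CT12, CT16 and CT20 recur one day later as CT36, CT40 and CT44, which allows the effect to be compared at equal phase between the start and the end of the fast. Abcb11 lay further below control late than early in the fast (late minus early -1.01 ± 0.13 (SE), adjusted p = 3.04e-07). So did Cyp7b1 (-1.28 ± 0.21 (SE), adjusted p = 1.64e-05). The difference of Cyp27a1, already positive though not called at CT8, went from positive early to negative late (-0.75 ± 0.12 (SE), adjusted p = 1.72e-05). The rise of Cyp8b1 grew (0.58 ± 0.19 (SE), adjusted p = 0.0214). Those are 4 of 10 genes, against 21.2% of all genes. The call for Cyp8b1 was lost without male replicate 1, male replicate 2 or female replicate 2 (0.56, 0.59 and 0.51). For Cyp7a1 the difference was -0.97 ± 0.49 (SE), adjusted p = 0.156. Without the libraries of female replicate 1 it was -1.05 and without those of female replicate 2 it was -1.56. For Fgfr4 the ends of the fast were not told apart (0.01 ± 0.09 (SE), adjusted p = 1.00). For Slc10a1 the value was 0.34 ± 0.13 (SE), adjusted p = 0.0658. It was called with DESeq2 size factors (adjusted p = 0.0468), upper quartile scaling (adjusted p = 0.0412) and a filter at a mean of at least 1 CPM (adjusted p = 0.0427). DESeq2 also called it (adjusted p = 0.0344). For Nr0b2 it was -0.30 ± 0.35 (SE), adjusted p = 0.605, and without female replicate 1 it was -1.11.

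**Figure D4:**
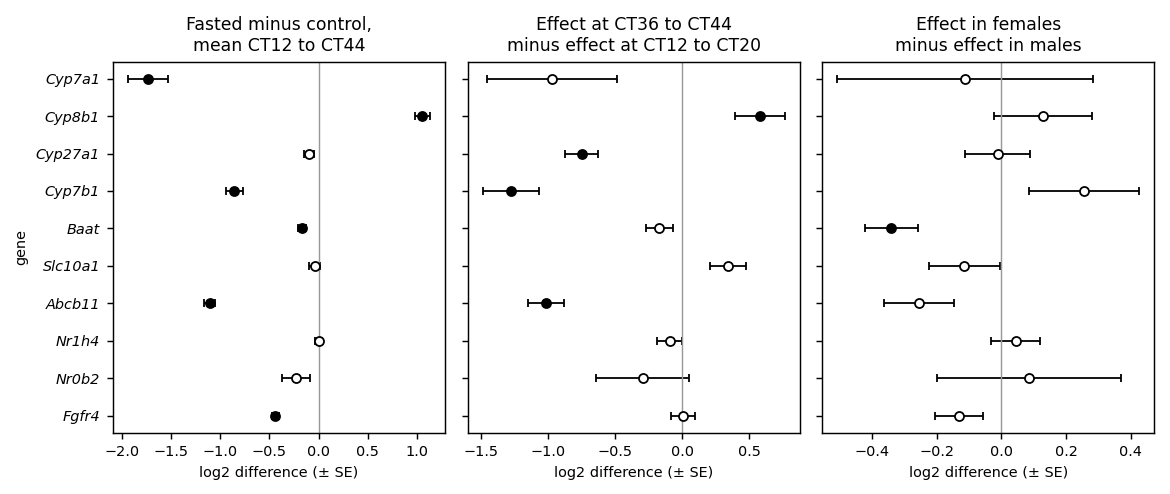
Log2 differences with their SE for the 10 genes: the mean fasting effect (left), the effect at CT36 to CT44 minus that at CT12 to CT20 (middle) and the effect in females minus that in males (right), with filled points where the adjusted p was under 0.05. Cyp8b1 is the only filled point right of 0 on the left, Abcb11, Cyp7b1 and Cyp27a1 lie left of 0 and Cyp8b1 right of it as the filled points in the middle, and Baat is the filled point on the right.

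Sex differences in control livers concerned 6 of the 10 genes, against 39.2% of all genes. Cyp7b1 was the most sex-biased, with 427 ± 118 CPM in males and 22.3 ± 4.81 CPM in females (SD, n = 20 each; log2 of female over male -4.25 ± 0.13 (SE), adjusted p = 9.30e-30). The lowest control male from CT12 on, 214 CPM, was far above the highest control female, 29.9 CPM. Cyp8b1 was also higher in males, at 426 ± 140.4 against 255 ± 94.6 CPM (-0.76 ± 0.10 (SE), adjusted p = 4.23e-08), as were Nr0b2 (-0.75 ± 0.19 (SE), adjusted p = 0.00148) and Baat (-0.20 ± 0.05 (SE), adjusted p = 0.0031). Slc10a1 (0.28 ± 0.07 (SE), adjusted p = 0.0017) and Fgfr4 (0.17 ± 0.05 (SE), adjusted p = 0.00386) were higher in females. Without male replicate 2 the calls of Baat, Nr0b2 and Fgfr4 were lost (-0.17, -0.63 and 0.16), and without male replicate 1 that of Slc10a1 (0.25). With the replicate number as a block those of Baat (adjusted p = 0.107) and Fgfr4 (adjusted p = 0.0693) were lost. The block was fitted within each sex, so that fit compares the replicate 1 levels of the sexes. It is not the same difference adjusted for replicate. Control livers had 237 ± 102 CPM of Cyp7a1 in males and 359 ± 170.4 in females, a difference that was not called (0.57 ± 0.27 (SE), adjusted p = 0.0819). It was 0.65 without female replicate 1 and 0.41 without female replicate 2.

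The response to fasting differed between the sexes for Baat, 1 of 10 genes, against 12.4% of all genes. Male controls spanned 192, 251 and 311 CPM and fasted males 188, 252 and 347 CPM (lowest, median, highest, n = 18 each, CT12 to CT44). Female controls spanned 181, 224 and 273 CPM and fasted females 102, 184 and 233 CPM. The male medians were alike and the fasted females lay lower, though all ranges overlapped. The effect in females minus that in males was -0.34 ± 0.08 (SE), adjusted p = 0.00419. In males alone the difference was 6.1e-04 ± 0.05 (adjusted p = 1.00) and in females alone -0.34 ± 0.06 (adjusted p = 7.05e-05). The call of the difference was lost without male replicate 1, male replicate 2 or female replicate 2, where it was -0.34, -0.32 and -0.20. In the 9 other genes the effects in the sexes were not told apart, for example for Cyp7b1 (0.26 ± 0.17 (SE), adjusted p = 0.363), for Abcb11 (-0.26 ± 0.11 (SE), adjusted p = 0.115), and for Cyp7a1 (-0.11 ± 0.40 (SE), adjusted p = 0.942), with a wide SE. The value for Cyp7a1 averages over the times, and both fasted females lay above both fasted males at CT28 and below them at CT20. Sex differences of the effect at single times were not tested. Without the libraries of female replicate 2 the value was -0.77 for Cyp7a1 and -0.29 for Abcb11. Without the filter on low counts Cyp7b1 and Abcb11 passed (adjusted p = 0.0256 and 0.0478), with smaller SEs of 0.08 and 0.09.

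**Figure D5:**
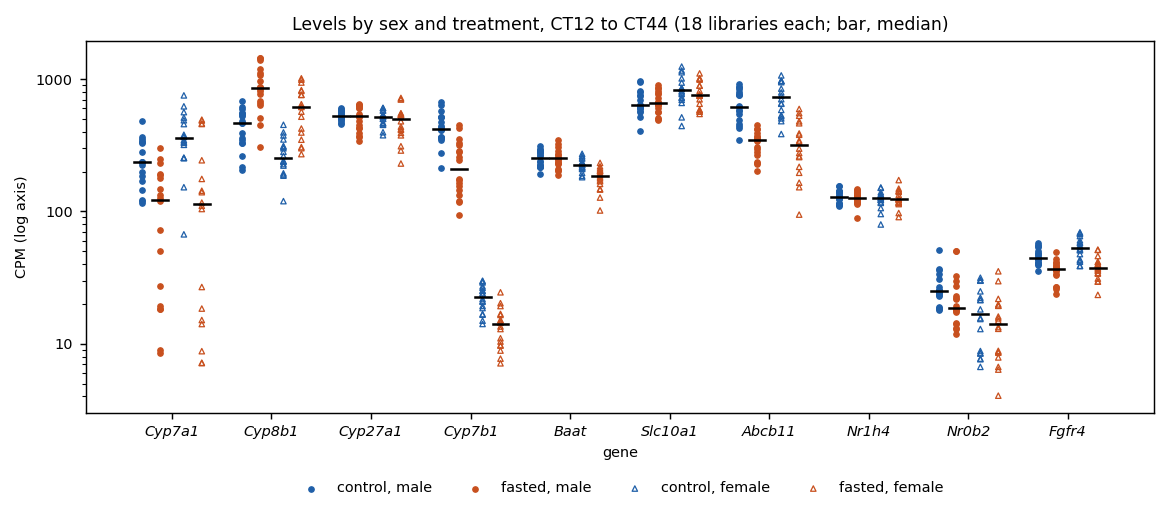
CPM on a log axis of the 10 genes in control and fasted males and females, 18 libraries each from CT12 to CT44, with a bar at the median. The control and fasted medians of Baat are 251 and 252 CPM in males and 224 and 184 CPM in females, and Cyp7b1 separates the sexes in both treatments.

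A 24 h rhythm in the 40 control livers was called for 7 of the 10 genes, against 41.8% of all genes. Cyp7a1 had the largest fitted amplitude of the 10 (peak-to-trough log2 1.55, peak at CT15.8, adjusted p = 4.72e-06), and Abcb11 peaked about 9 h later (peak-to-trough log2 1.07, peak at CT1.0, adjusted p = 1.99e-09). Cyp8b1 (peak-to-trough log2 0.90, peak at CT23.7, adjusted p = 0.00154), Fgfr4 (peak-to-trough log2 0.56, peak at CT22.4, adjusted p = 6.36e-08) and Baat (peak-to-trough log2 0.41, peak at CT21.1, adjusted p = 4.95e-05) peaked between these phases, Slc10a1 before all of them (peak-to-trough log2 0.52, peak at CT10.1, adjusted p = 0.00236) and Nr1h4 shortly before Cyp7a1 (peak-to-trough log2 0.37, peak at CT14.1, adjusted p = 3.22e-04). Nr0b2, Cyp27a1 and Cyp7b1 did not pass, though Cyp7b1 did with time as a factor (adjusted p = 0.0464). Slc10a1 lost its call without female replicate 1 (adjusted p = 0.0596). Sampling covered CT8 to CT44, so each phase was seen once or at most on 2 days. In fasted livers from CT12 on, with a linear trend for the length of the fast, 6 of the 10 genes passed, against 47.1% of all genes. Slc10a1 had nearly the peak time of controls (peak-to-trough log2 0.61, peak at CT10.2, adjusted p = 2.37e-05), as did Cyp8b1 (peak-to-trough log2 1.26, peak at CT23.2, adjusted p = 2.13e-07). Cyp7a1 had another peak time than in controls (peak-to-trough log2 2.47, peak at CT6.8, adjusted p = 0.00714), as had Fgfr4 (peak-to-trough log2 0.56, peak at CT8.4, adjusted p = 9.72e-05).

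The difference between the rhythms of fasted and control livers was itself called for 4 of the 10 genes, against 21.6% of all genes: Fgfr4 (adjusted p = 7.22e-09), Cyp7a1 (adjusted p = 8.39e-04), Baat (adjusted p = 0.00676) and Nr1h4 (adjusted p = 0.00899). For Slc10a1 (adjusted p = 0.861) and Cyp8b1 (adjusted p = 0.139) it was not. Abcb11 missed the threshold (adjusted p = 0.0641). It passed with a filter at a mean of at least 1 CPM (adjusted p = 0.045) and with DESeq2 (adjusted p = 0.0472). The call was lost for Nr1h4 without male replicate 2 or female replicate 2 (adjusted p = 0.102 and 0.146) and for Baat without male replicate 2 (adjusted p = 0.0802). The rhythm of Cyp7a1 in fasted livers lost its call without male replicate 2 (adjusted p = 0.0570) or female replicate 2 (adjusted p = 0.0763). That of Abcb11 did so without male replicate 2 (adjusted p = 0.101), without female replicate 1 (adjusted p = 0.0634) and without the linear trend (adjusted p = 0.488).

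Other genes of the pathway were followed in the same way, over CT12 to CT44. Of all genes 62.5% were called, 29.5% higher and 32.9% lower, and the counts of each list stand beside these shares. Of 9 tested genes of classic and alternative synthesis outside the 10, 2 rose and 4 fell (median log2 difference -0.03, against -0.02 over all genes). Cyp2c70, which makes the muricholic acids of the mouse, fell from 658 ± 178 to 152 ± 172 CPM (log2 difference -3.08 ± 0.08 (SE), adjusted p = 2.65e-32) (SD, n = 36 each here and below). Akr1c6, an aldo-keto reductase, fell from 765 ± 136 to 329 ± 189 CPM (log2 difference -1.42 ± 0.10 (SE), adjusted p = 8.83e-17). Cyp39a1, an oxysterol 7α-hydroxylase, rose from 35.9 ± 20.2 to 87.0 ± 51.4 CPM (log2 difference 1.25 ± 0.08 (SE), adjusted p = 5.77e-18), and Star, a mitochondrial cholesterol carrier, rose from 1.02 ± 0.218 to 1.38 ± 0.362 CPM (log2 difference 0.42 ± 0.07 (SE), adjusted p = 2.99e-07). Of 7 genes of side chain shortening and conjugation, 5 rose and 1 fell (median 0.51), against 29.5% and 32.9% of all genes. The acyl-CoA synthetase Slc27a2 rose from 1166 ± 269 to 2481 ± 484 CPM (log2 difference 1.10 ± 0.05 (SE), adjusted p = 3.05e-24) and the peroxisomal thioesterase Acot8 rose from 11.3 ± 1.83 to 22.1 ± 5.87 CPM (log2 difference 0.94 ± 0.05 (SE), adjusted p = 1.00e-20). The bile acid CoA ligase Slc27a5, which acts just before Baat, fell from 974 ± 86.9 to 896 ± 135 CPM (log2 difference -0.13 ± 0.04 (SE), adjusted p = 0.00126).

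Transporters moved in both directions. Of 4 other sinusoidal uptake genes 1 rose and 3 fell (median -0.19): Slco1a4 rose from 111 ± 64.3 to 248 ± 129.7 CPM (log2 difference 1.23 ± 0.09 (SE), adjusted p = 5.48e-16), while Slco1a1 fell from 325 ± 229 to 166 ± 176 CPM (log2 difference -1.58 ± 0.14 (SE), adjusted p = 2.28e-13) and Slco1b2 fell from 994 ± 217 to 818 ± 220.1 CPM (log2 difference -0.29 ± 0.08 (SE), adjusted p = 7.92e-04). Of 6 other canalicular genes 4 rose and 2 fell (median 0.34). The phospholipid flippase Abcb4 rose from 245 ± 48.0 to 556 ± 146 CPM (log2 difference 1.15 ± 0.05 (SE), adjusted p = 8.98e-26) and the sterol transporter subunit Abcg8 rose from 88.9 ± 37.1 to 139 ± 24.5 CPM (log2 difference 0.73 ± 0.06 (SE), adjusted p = 1.50e-14). The aminophospholipid flippase Atp8b1 fell from 51.0 ± 10.4 to 29.4 ± 6.19 CPM (log2 difference -0.80 ± 0.05 (SE), adjusted p = 2.40e-19) and the drug efflux pump Abcb1a fell from 10.2 ± 8.52 to 7.76 ± 5.88 CPM (log2 difference -0.21 ± 0.08 (SE), adjusted p = 0.0195). Of 3 tested basolateral exporters Abcc3 rose from 286 ± 60.1 to 484 ± 98.2 CPM (log2 difference 0.76 ± 0.05 (SE), adjusted p = 1.63e-18) and Abcc4 rose from 6.2 ± 2.87 to 6.52 ± 1.98 CPM (log2 difference 0.16 ± 0.06 (SE), adjusted p = 0.0261), while Slc51b, at about 1 CPM, fell from 1.16 ± 0.767 to 0.455 ± 0.38 CPM (log2 difference -1.55 ± 0.20 (SE), adjusted p = 2.52e-09).

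Of 7 tested genes known to be induced by FXR, outside the 10, 4 rose and 2 fell (median 0.15). Besides Abcb4 and Slc51b, Apoc2 rose from 4.85 ± 1.16 to 6.79 ± 1.92 CPM (log2 difference 0.48 ± 0.08 (SE), adjusted p = 3.77e-06) and Pltp fell from 83.9 ± 42.3 to 63.6 ± 21.3 CPM (log2 difference -0.31 ± 0.09 (SE), adjusted p = 0.00341). The 2 of the 10 genes that belong to it were Abcb11, which fell, and Nr0b2, which was not called. Of 12 receptors and cofactors 8 rose and 1 fell (median 0.17), against 29.5% and 32.9% of all genes. The coactivator Ppargc1a rose from 11.8 ± 4.01 to 41.8 ± 26.5 CPM (log2 difference 1.73 ± 0.12 (SE), adjusted p = 1.29e-17), the constitutive androstane receptor Nr1i3 rose from 261 ± 108 to 458 ± 153 CPM (log2 difference 0.84 ± 0.11 (SE), adjusted p = 2.01e-09), and the oxysterol receptor Nr1h3 fell from 95.6 ± 8.3 to 85.1 ± 5.42 CPM (log2 difference -0.17 ± 0.02 (SE), adjusted p = 2.02e-08). Of 5 clock genes known to act on Cyp7a1, 3 rose and 1 fell (median 0.21). The repressor Bhlhe40 fell from 127 ± 45.8 to 67.3 ± 33.1 CPM (log2 difference -0.98 ± 0.07 (SE), adjusted p = 4.01e-16). For Nr1d1 and Dbp, which cycle strongly, the log2 difference averaged over times (Nr1d1 0.96 ± 0.11 (SE), Dbp 0.38 ± 0.13 (SE)) weighs the troughs as much as the peaks. Their mean levels were 43.8 and 43.0 CPM for Nr1d1 and 47.6 and 39.4 CPM for Dbp in control and fasted livers. The ileal hormone list had 1 tested gene, the uptake transporter Slc10a2, which fell from 23.9 ± 13.2 to 17.1 ± 13.9 CPM (log2 difference -0.63 ± 0.15 (SE), adjusted p = 4.40e-04). Bile duct cells also express Slc10a2. It is among the cholangiocyte markers counted above, so its fall stands in both lists. Fabp6, like Fgf15, had 0 counts in all 80 libraries.

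Fasting was marked in the same livers by known responders: Fgf21, a hormone of the fasted liver, rose from 0.512 ± 0.479 to 9.46 ± 7.67 CPM (log2 difference 3.95 ± 0.25 (SE), adjusted p = 3.56e-18) and Pck1, of gluconeogenesis, rose from 1594 ± 908 to 4921 ± 1193 CPM (log2 difference 1.80 ± 0.08 (SE), adjusted p = 5.37e-23). Srebf1 and Fasn, of fatty acid synthesis, fell from 485 ± 202 to 72.3 ± 78.0 CPM (log2 difference -3.13 ± 0.10 (SE), adjusted p = 1.90e-29) and from 2092 ± 1953 to 324 ± 406 CPM (log2 difference -2.86 ± 0.13 (SE), adjusted p = 8.74e-24).

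Counts of exon bins, the pieces of each gene's exons, showed whether parts of a gene changed more than the rest. Of the 9 genes with more than 1 tested bin, 3 were called, against 14.7% of all genes, and Cyp8b1 has a single bin. In Slc10a1 the called bin, number 14 of 14, held 0.833% ± 0.4 of the gene's bin counts in control and 0.522% ± 0.326 in fasted livers (SD, n = 36 each; log2 difference from the rest of the gene -0.51, adjusted p = 9.60e-28). In Nr1h4 bins 13 and 14 of 14 were called, and bin 13 held 3.54% ± 0.354 of the gene's bin counts in control and 2.96% ± 0.443 in fasted livers (SD, n = 36 each; log2 difference from the rest of the gene -0.18, adjusted p = 5.99e-04). In Cyp27a1 bins 6 and 11 of 15 were called, and bin 6 held 1.3% ± 0.19 of the gene's bin counts in control and 1.1% ± 0.296 in fasted livers (SD, n = 36 each; log2 difference from the rest of the gene -0.19, adjusted p = 1.08e-04). All 5 called bins took a smaller share of their gene in fasted livers and held under 4% of its bin counts. None of the bins of Cyp7a1, Cyp7b1, Abcb11, Fgfr4, Baat or Nr0b2 was called. The exon columns of fasted CT40 did not all go with the gene table, since 3 of them resembled another library of that group more than their own, so this group entered without sex. Without CT40 the same 3 genes were called, while without male replicate 2 Nr1h4 was not (adjusted p = 0.198).

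Levels per kilobase of exon were ordered within each sex. In control males the order in CPM per kb (mean ± SD, n = 18 from CT12 to CT44) was Slc10a1 (306 ± 65.2), Cyp27a1 (246 ± 19.9), Cyp8b1 (225 ± 72.6), Cyp7b1 (202 ± 54.9), Baat (130 ± 18.2), Abcb11 (127 ± 34.7), Cyp7a1 (59.4 ± 24.3), Nr1h4 (56.3 ± 6.54), Nr0b2 (23.8 ± 7.27) and Fgfr4 (13 ± 1.79). The gaps below Cyp7b1, Abcb11, Nr1h4 and Nr0b2 were wider than the larger SD of the pair, and the other neighbours differed by less. In control females the order was Slc10a1 (380 ± 94.9), Cyp27a1 (234 ± 29.8), Abcb11 (144 ± 40.9), Cyp8b1 (139 ± 43), Baat (116 ± 12.9), Cyp7a1 (90.8 ± 40), Nr1h4 (54 ± 7.66), Nr0b2 (15.8 ± 7.9), Fgfr4 (15.1 ± 2.87) and Cyp7b1 (10.4 ± 2.33). Here the gaps below Slc10a1, Cyp27a1, Nr1h4 and Fgfr4 were wider than the larger SD. Cyp7b1 stood at place 4 in males and place 10 in females. In fasted livers Cyp8b1 came first in males (458 ± 171 CPM per kb, with Slc10a1 at 308 ± 58.5), while in females Slc10a1 (352 ± 80.1) came before Cyp8b1 (317 ± 125) within the SD. Exon lengths are those of GENCODE M21 (GRCm38), 1132 bp for Nr0b2 to 5146 bp for Abcb11, and may differ from those the counts were made with.

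Over the 40 means of treatment, time and sex, the genes whose log2 CPM went most closely with each of the 10 are given as a description (Pearson r, n = 40 means that share libraries and depth). Cyp7a1 was closest to Gm69496 (0.986), an unnamed gene model whose position relative to Cyp7a1 was not examined, and then to Kalrn (0.832). Cyp7b1 went with C6 (0.983) and Gstp1 (0.982), Abcb11 with Ggcx (0.925) and Cars1 (0.914), and Fgfr4 with Shank2 (0.917) and Scly (0.851). The means take in both sexes, so for Cyp7b1, with its wide sex difference, a high r can come from sex alone. Cyp8b1 went with Tmem243 (0.893) and Nckap1 (0.888), Baat with Gm66978 (0.888) and Ppdpf (0.813), and Cyp27a1 with Slc27a5 (0.816) and Laptm4a (0.747). The values were 0.813 for Slc10a1 with Kars1 and with Slc2a2, 0.755 and 0.737 for Nr0b2 with Prr13 and Gm31522, and only 0.597 and 0.594 for Nr1h4 with Lrrc28 and Cgrrf1. Among the 10 themselves the highest value was 0.673, between Cyp7a1 and Fgfr4, and the lowest -0.562, between Cyp7a1 and Cyp8b1.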

How the data were processed

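Per the labels, reads were trimmed with Trimmomatic, aligned with HISAT2 and analysed with DESeq2 against GRCm39 in the submitters' processing notes, with versions, counter and strand setting not given in the sources used here. The deposited tables hold raw counts per gene and per exon bin, made by the authors. A normalised table was not used. Groups came from the sample titles. Genes were filtered with filterByExpr, scaled by the trimmed mean of M values and tested with edgeR 4.0.16 (R 4.3.3) by a quasi-likelihood test with a group term for each treatment, time and sex, with Benjamini-Hochberg adjustment over all genes (threshold 0.05). Rhythms were a cosine of 24 h with sex as covariate. Exon bins were tested with edgeR for a change against the rest of the gene. Alternatives used other scalings and filters, limma 3.58.1, DESeq2 1.42.0, a replicate block and fits without single replicates. The scripts were tested on simulated data. Libraries held 25534901 to 59927771 counts. The article read for background is a review and gave no test. The members and gene lists were chosen with earlier results of these data known, and the genes named from each list were the 2 called genes with the largest rise and the 2 with the largest fall.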

Additional observations from a re-analysis of the deposited data

Results flagged for a closer look

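In 10 of 200 groups of 4 libraries, 1 library stood apart from the other 3 (its gap to the nearest, over the range of the group, was above Dixon's 95% critical value), and chance alone flags about 1 in 20 groups. Cyp7a1 was 7.14 CPM in fasted CT24 female 1, against 110 to 180 CPM in the other 3, and Cyp27a1 was 437 CPM in the same library, against 518 to 535 CPM. Cyp8b1 was 99.6 CPM in fasted CT8 female 1 (others 243 to 279 CPM). Cyp27a1 was 576 CPM in control CT16 male 2 (500 to 502 CPM) and 538 CPM in control CT36 female 2 (459 to 468 CPM). Abcb11 was 968 CPM in control CT20 female 2 (750 to 760 CPM). Nr1h4 was 98 CPM in control CT8 female 2, the library rich in ribosomal RNA (126 to 129 CPM), and 116 CPM in fasted CT20 female 2 (125 to 126 CPM). Nr0b2 was 7.88 CPM in fasted CT20 female 1 (18.3 to 19.8 CPM) and 8.84 CPM in fasted CT36 female 2 (21.8 to 22.9 CPM).

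Effects of fasting that differed between times or sexes were flagged by the test of the difference itself (edgeR, adjusted over all genes). Late minus early in the fast, the log2 difference changed by 0.58 for Cyp8b1 (adjusted p = 0.0214), -0.75 for Cyp27a1 (adjusted p = 1.72e-05), -1.28 for Cyp7b1 (adjusted p = 1.64e-05) and -1.01 for Abcb11 (adjusted p = 3.04e-07). Between the sexes it differed by -0.34 for Baat (females minus males, adjusted p = 0.00419). The rhythms of fasted and control livers differed with a peak-to-trough log2 of the difference of 3.56 for Cyp7a1 (adjusted p = 8.39e-04), 0.56 for Baat (adjusted p = 0.00676), 0.47 for Nr1h4 (adjusted p = 0.00899) and 1.05 for Fgfr4 (adjusted p = 7.22e-09).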

How the results depend on the processing

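Of 2382 values of single genes among the 10, recomputed under the alternatives, 2262 kept their direction and side of the threshold, 58 lost and 61 gained a call and 1 reversed, with no direction given to values called in neither fit. The reversed value was the mean fasting effect of Baat in males alone (6.1e-04, adjusted p = 1.00). Of 272 counts 240 were within 1.5 times of the reported one. Without the filter on low counts, 7 genes of the 10 in place of 4 were called late minus early. That fit also called 3 in place of 1 for the sex difference of the effect and 2 in place of 0 at CT8. Its SE at CT8 was 0.12 in place of 0.59 for Cyp7a1 and 0.12 in place of 0.43 for Nr0b2. Calls gained without the filter rest on this smaller spread and were not counted as support. At CT8, 282 of all genes were called, with 853 without the filter, 4 with limma-voom, 556 with DESeq2, 11 without control CT8 female replicate 2 and 0 in an edgeR fit of the CT8 libraries alone (1129 at an unadjusted p under 0.05). With a change of at least 1.5 times, the mean effect was called for 4359 in place of 13233 genes, and with at least 10 counts in every library exon usage was called for 993 in place of 2014. The cause was not tested.

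Libraries were left out as 1 replicate number of 1 sex at every time, where the lone library of a group is assumed to vary like the other groups, or as control CT8 female replicate 2 alone. Genes called of all and of the 10 then ranged from 1449 to 4719 and 3 to 7 late minus early, 238 to 2831 and 0 to 2 for the sex difference of the effect, 0 to 2123 and 0 to 1 at CT8, 8485 to 13502 and 5 to 9 for any time, 2461 to 3374 and 2 to 4 for the rhythm difference, and 10835 to 13458 and 6 to 7 for the mean effect. The sex difference in controls was called for 5741 to 8080 genes and 3 to 7 of the 10. Effects at single times summed to 25717 to 50669 calls over all genes and 28 to 39 calls of the 10. Exon usage was called for 1111 to 1457 genes and 2 to 3 of the 10.

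Replicate numbers did not pair the samples: 1 of 18 correlations of same-numbered deviations was over 0.1 (-0.0564 to 0.249). With the replicate number as a block, 13189 genes and 6 of the 10 were called for the mean effect and 36 in place of 37 calls of the 10 were made over the 9 times, without Abcb11 at CT16. For the sex difference in controls the block fit compared the replicate 1 levels of the sexes, not their means. It called 5903 genes and 4 of the 10, without Baat (adjusted p = 0.107) and Fgfr4 (adjusted p = 0.0693). For exon usage without CT40 the block called 1626 genes. At single times the SE of the log2 difference over 4 against 4 libraries was 0.59 to 0.67 for Cyp7a1 and 0.42 to 0.43 for Nr0b2.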
